A study of Mus musculus with 8 samples.

Results

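The genes described here are the nuclear genes for subunits of the oxidative phosphorylation system, measured in cortical GABAergic neurons of hypothyroid mice with and without thyroid hormone (TH). They were chosen by symbol, without use of their values: the Nduf series (complex I), Sdha to Sdhd (complex II), the Uqcr series with Cyc1 (complex III), Cycs (cytochrome c), Cox4 to Cox8 symbols ending in a letter form (complex IV) and the Atp5 series (complex V). The rule matched 85 of 55341 genes. Of these, 80 had enough counts to be tested among 17355 genes, and the other 5 are accounted for below.

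The oxidative phosphorylation system sits in the inner mitochondrial membrane. Complexes I and II take electrons from NADH and succinate, complex III passes them to cytochrome c, complex IV passes them to oxygen, and complex V makes ATP from the proton gradient that complexes I, III and IV build up. Most of its subunits are made from nuclear genes and imported, and the catalytic cores of complexes I, III, IV and V also hold subunits made from the mitochondrial genome. Fast-spiking inhibitory neurons are known for a high demand for ATP, and TH is a known regulator of mitochondrial genes in several tissues.

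The series measured nuclear RNA from the cortex of juvenile mice. A Cre-dependent reporter restricted a fluorescent nuclear protein to GABAergic neurons, and the labelled nuclei were sorted. The mice of the PTU group (numbers 9 to 12, n = 4) were hypothyroid because their mothers took propylthiouracil (PTU), which blocks the making of TH, during gestation. The mice of the PTU+TH group (numbers 13 to 16, n = 4) had the same treatment and an intraperitoneal injection of TH 24 h before the brain was collected, so both groups carry the reporter and both were exposed to PTU, and no untreated mice are part of the comparison. The labels name 1 mouse per library and give no strain, Cre driver, sex, litter, exact age or batch.

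Libraries held 21.8 to 29.1 M counts, and the group means of 24.0 ± 1.39 M (PTU) and 24.1 ± 3.37 M (PTU+TH) were close (SD over 4 libraries; two-sided exact permutation p = 1). The 7 GABAergic marker genes summed to 5533 to 7600 CPM (counts scaled to the library size after normalisation) in PTU and 5735 to 6926 in PTU+TH, with 5 tested and Dlx1 and Dlx6 listed at 0. Excitatory neuron markers summed to 276 to 319 and 246 to 328 CPM, astrocyte markers to 125 to 241 and 127 to 366, oligodendrocyte markers to 96.5 to 124 and 95.02 to 194, oligodendrocyte precursor markers to 8.27 to 24.0 and 10.4 to 33.0, microglial markers to 11.2 to 17.05 and 15.4 to 31.3 (P2ry12 at 0), and endothelial markers to 33.5 to 152 and 33.6 to 108. The oligodendrocyte and microglial markers had median log2 fold changes of 0.68 (6 of 7 higher) and 0.57 (5 of 6 higher), larger than the 0.16 of the subunit genes, and their part in it was not tested. There were 0 genes of these 6 lists called by edgeR, DESeq2 or limma voom. At an unadjusted p under 0.05 in edgeR 2 were higher (1 each for oligodendrocytes and microglia), against 6.59% of all genes. Genes of the parvalbumin (PV) class of GABAergic neurons summed to 227 to 317 and 290 to 383 CPM. Of these, Syt2 and Nefh, 2 of 5, were called higher in edgeR, where 1.49% of all genes were. The part of the PV class genes in the levels of the subunit genes was not tested. The TH-responsive genes Hr and Itga7 went with the labels, with Hr at 1.80 ± 0.532 CPM without TH and 26.6 ± 1.62 CPM with it (SD over 4 libraries; adjusted p = 6.59e-07 in edgeR). Counts of Y-linked genes were 0 in PTU+TH mice 15 and 16 and 7960 to 11548 in the other 6 libraries, so the groups differ in this as well. PTU mouse 9 stands apart for the genes described here, and the main results are given with and without it. Where leaving out some other library moved the log2 fold change of a gene named here by over 1.5 times, the lowest or highest such value is given beside it.

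No subunit gene passed an adjusted p of 0.05 (edgeR quasi-likelihood test, Benjamini-Hochberg over all genes tested), yet nearly all of them had estimates on the same side. In PTU+TH against PTU, 74 of 80 estimates were higher and 6 were lower, and the median log2 fold change was 0.16, which is 11.6%. Over all genes tested, 48.6% of estimates were higher and the median was -0.01. Calls numbered 0 of 80, where 1.49% of all genes were called higher and 0.634% lower. At an unadjusted p of 0.05 in edgeR, 13 of 80 were higher, against 6.59% of all genes, and 0 were lower, against 6.17%. DESeq2 called 2 of them (Cox7b and Ndufs4), where it called 2.63% of all genes higher, and limma voom called 0, where it called 1.67%. The 95% interval lay within a 1.5-fold change in either direction for 62 of 80 genes, and its upper bound lay under a doubling for 78. Fewer cells of a type and less RNA per cell cannot be told apart in libraries of pooled nuclei.

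**Figure D1:**
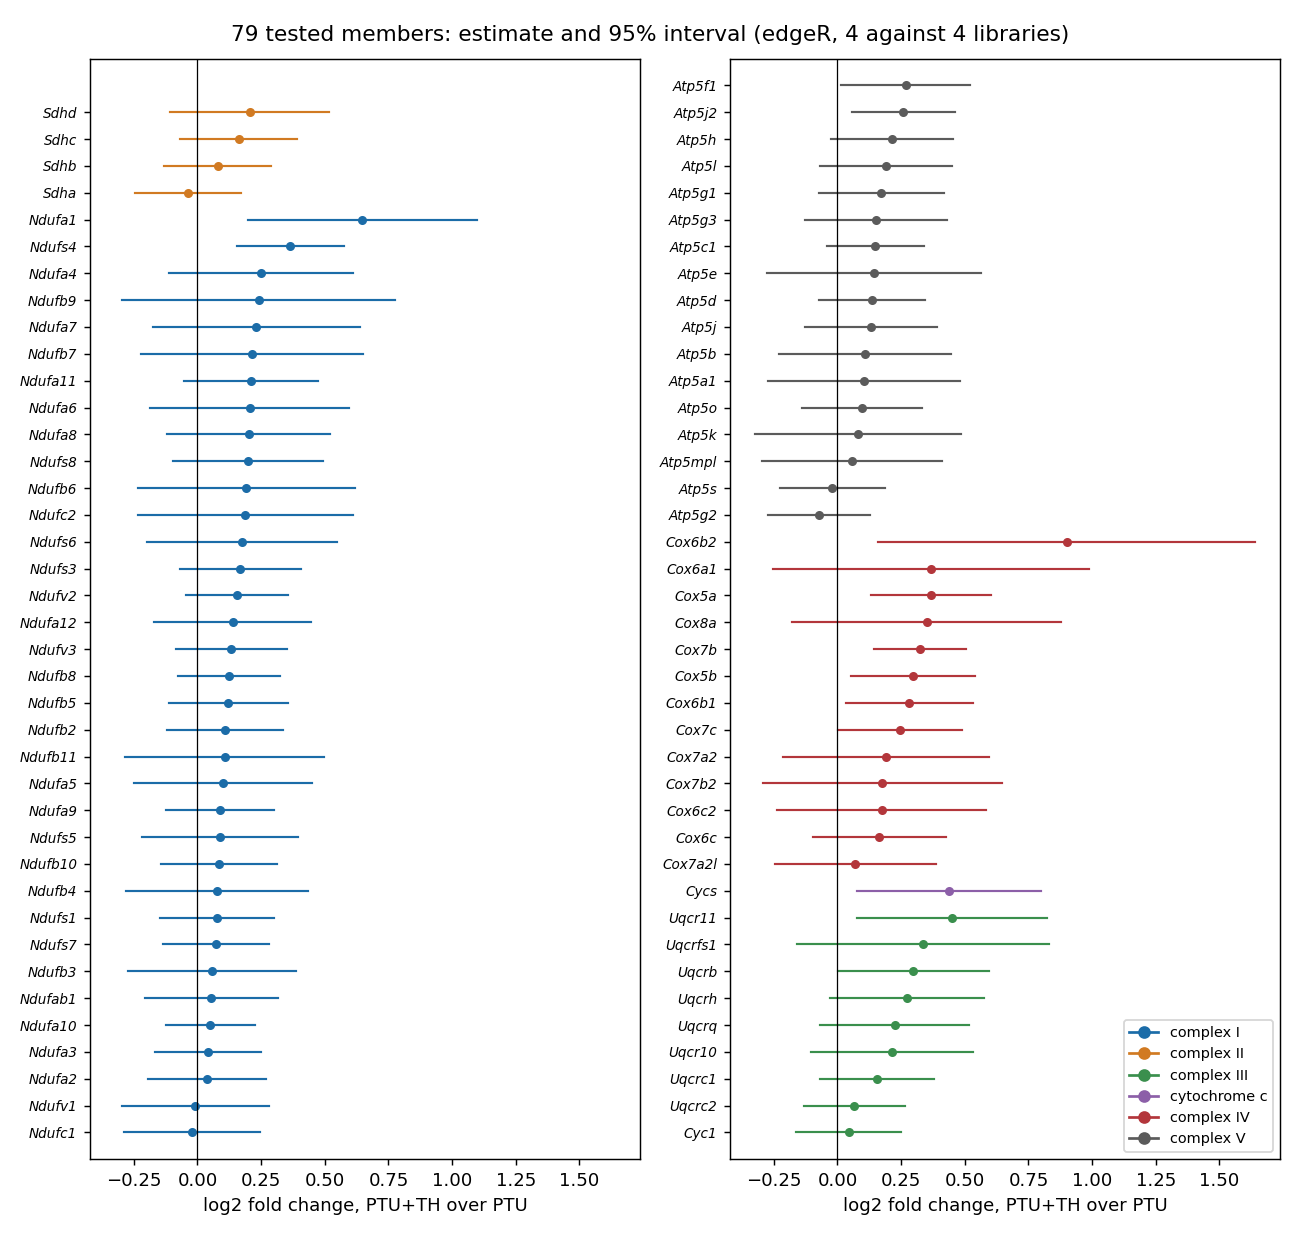
Log2 fold change (x axis) of 79 tested subunit genes in PTU+TH over PTU, each as a point with its 95% interval, coloured by complex and sorted within each complex. Of the 79 points, 74 lie right of 0, most with an interval that crosses 0.

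The library of PTU mouse 9 lay above the other 3 PTU libraries for most of these genes. As the median deviation of the 80 genes from their own mean over the 8 libraries, in log2 CPM, mouse 9 stood at 0.16, and PTU mice 10, 11 and 12 at -0.10, -0.17 and -0.19. PTU+TH mice 13, 14, 15 and 16 stood at 0.10, 0.14, 0.12 and -0.02. Mouse 9 was at least as high as the PTU+TH libraries, and mouse 16 was the lowest of its own group without reaching mice 10 to 12. Mouse 9 had the highest level of the 4 PTU libraries for 63 of 80 genes, against 29.6% of all genes, and mouse 16 had the lowest of the PTU+TH libraries for 43 of 80, against 23.6% of all genes. The summed level of the 80 genes was 4795, 3949, 3787 and 3802 CPM in PTU mice 9 to 12 and 4477, 4757, 4556 and 4218 CPM in PTU+TH mice 13 to 16. The sums averaged 4083 ± 480.1 and 4502 ± 223 CPM (SD, n = 4 each), and the groups overlapped only through mouse 9.

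**Figure D2:**
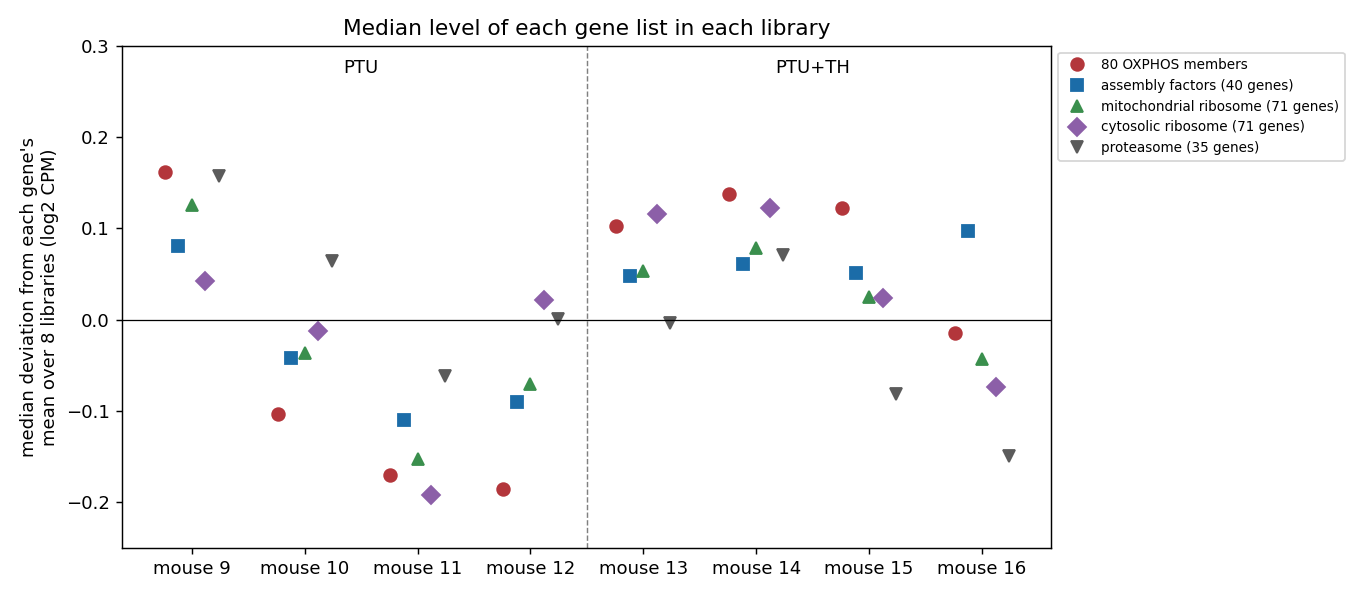
Median deviation of each gene list from its genes' own means over the 8 libraries (y axis, log2 CPM), by mouse, with PTU left and PTU+TH right of the dashed line. The 80 subunit genes stand at 0.16 in PTU mouse 9, between -0.19 and -0.10 in the other PTU mice and between -0.02 and 0.14 in the PTU+TH mice.

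Short genes as a whole were high in mouse 9, and other libraries differed with gene length as well. Over all genes with a body of 2 to 5 kb the median deviation of mouse 9 was 0.18, at 5 to 10 kb it was 0.13, and over 100 kb it was -0.25. At 2 to 5 kb it was 0.03, -0.12 and -0.10 in PTU mice 10 to 12 and 0.07, 0.01, 0.09 and -0.05 in PTU+TH mice 13 to 16. Over 100 kb it was -0.09, 0.20 and 0.12 in PTU mice 10 to 12 and -0.05, -0.05, 0.03 and 0.15 in PTU+TH mice 13 to 16. The subunit genes are short, with a median body of 7.37 kb against 23.4 kb for all genes tested. Within the 2 to 5 kb and 5 to 10 kb classes their own median in mouse 9 was 0.21 and 0.30. It was 0.10 under 2 kb, 0.13 at 10 to 20 kb, 0.05 at 20 to 50 kb and -0.39 over 100 kb. In those classes the median of all genes in mouse 9 was 0.27, 0.09, 0.01 and -0.25. Over the 80 subunit genes, the excess of mouse 9 over PTU mice 10 to 12 fell with body length (Spearman correlation -0.35). Over all genes the median log2 fold change also fell with length at first, from 0.03 under 2 kb to -0.02 at 20 to 50 kb, and was 0.00900 over 100 kb. The subunit genes of 2 to 5 kb (24 genes) had a median log2 fold change of 0.21, those of 5 to 10 kb (27 genes) 0.14, those of 10 to 20 kb (15 genes) 0.13 and those of 20 to 50 kb (9 genes) 0.09. The 3 genes under 2 kb had 0.17 and the 2 over 100 kb had 0.27, so the medians do not fall throughout with length. The part of gene length in these values was not tested beyond the fit with length offsets, in which 74 of 80 estimates were higher and the median was 0.16.

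Without mouse 9, 78 of 80 estimates were higher, the median log2 fold change was 0.25, and 4 genes were called higher in edgeR, where 1.93% of all genes were. These were Ndufa1 (0.89, SE 0.18, adjusted p = 0.0171), Atp5f1 (0.41, SE 0.09, adjusted p = 0.0238), Uqcr11 (0.63, SE 0.15, adjusted p = 0.0356) and Cox5a (0.45, SE 0.11, adjusted p = 0.0435). In CPM, all 4 PTU+TH libraries lay above PTU mice 10 to 12 for 30 of 80 genes, against 8.52% of all genes. With all 8 libraries the groups did not overlap for 5 higher genes (Ndufs4, Cox7b, Cox5a, Cox7c and Cycs), against 4.68% of all genes, and for 1 lower gene (Atp5g2), against 4.03%. Marker lists of other cells also moved without mouse 9. Their median log2 fold changes were then 0.35 (excitatory), 0.31 (astrocyte), 0.33 (oligodendrocyte precursor), 0.78 (microglia), 0.86 (oligodendrocyte) and -0.28 (endothelium). With all libraries they were 0.07, 0.15, 0.09, 0.57, 0.68 and -0.12. In both fits 0 of these markers were called, and their part in the subunit values was not tested. Leaving mouse 9 out was a choice made after its values were known from the same data, and no label sets it apart.

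**Figure D3:**
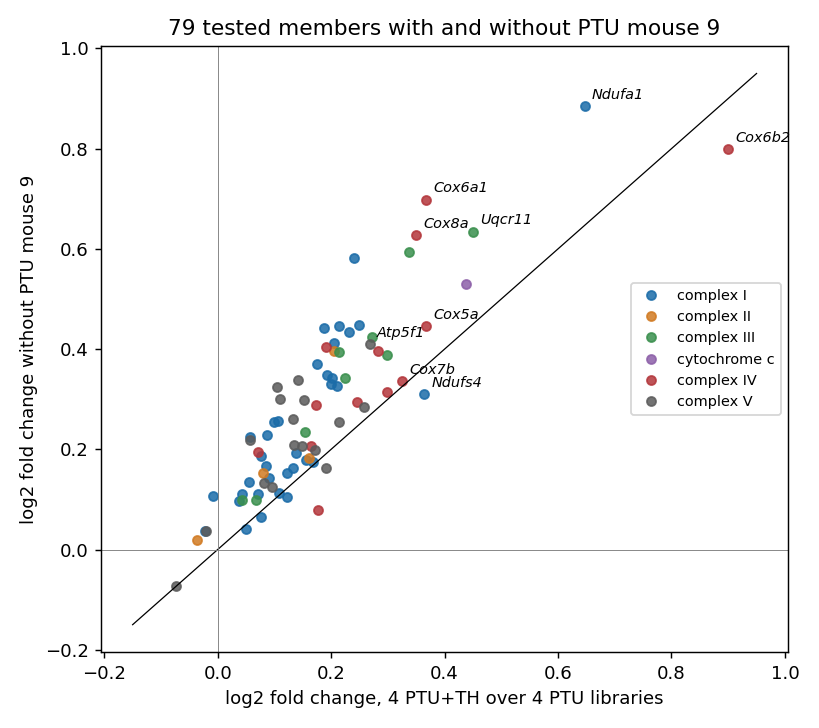
Log2 fold change of 79 tested subunit genes with all 8 libraries (x axis) and without PTU mouse 9 (y axis), coloured by complex, with the line of equal values. Most points lie above the line, such as Ndufa1, which moves from 0.65 to 0.89, while Ndufs4 lies just below it, at 0.36 and 0.31.

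Complex I, the NADH dehydrogenase, had 37 genes, of which 36 were tested. Estimates were higher for 33 and lower for 3, with a median log2 fold change of 0.12. At an unadjusted p under 0.05 in edgeR 2 of 36 were higher, close to the 6.59% of all genes. Without mouse 9, 35 of 36 were higher and the median was 0.19. Its summed level was 1315 ± 114 against 1426 ± 60.1 CPM (PTU and PTU+TH, mean ± SD over 4 libraries). Ndufa4 is counted here by its symbol, although its protein is nowadays placed in complex IV.

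Ndufs4 encodes an accessory subunit needed for a stable and fully active complex I, whose loss causes a Leigh-like encephalopathy in mice. The gene (chromosome 13, 114287795 to 114388258, GRCm38) was at 72.3, 79.0, 92.0 and 87.2 CPM in PTU mice 9 to 12 and at 103, 100.2, 103 and 119 CPM in PTU+TH mice 13 to 16. The groups did not overlap, and mouse 9 was the lowest library rather than the highest. The means were 82.6 ± 8.73 and 106 ± 8.63 CPM (SD, n = 4 each), a log2 fold change of 0.36 (SE 0.10, 95% interval 0.15 to 0.57) with an edgeR adjusted p of 0.0802. Other fits moved its adjusted p to 0.0322 (DESeq2), 0.00804 (length offsets, where 2.57% of all genes were called higher), 0.00367 (a surrogate variable, where 3.79% were) and 0.378 (presence of Y-linked counts as a covariate). At an adjusted p of 0.1 in edgeR, Ndufs4 and Cox7b would be called, beside 2.21% of all genes that were higher at that level.

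Ndufa1, a small membrane-arm subunit needed for assembly, is X-linked (37187588 to 37191163). Its level was 10.6, 7.04, 6.33 and 5.38 CPM in PTU mice 9 to 12 and 10.9, 9.52, 13.8 and 12.0 CPM in PTU+TH mice 13 to 16. Mouse 9 alone of the PTU libraries reached the PTU+TH range. The means were 7.34 ± 2.28 and 11.5 ± 1.79 CPM (SD, n = 4 each), with a log2 fold change of 0.65 (SE 0.21, 95% interval 0.20 to 1.10) and an edgeR adjusted p of 0.162. Over the 6 libraries with Y-linked counts the log2 fold change was 0.47 (edgeR adjusted p = 0.728).

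Ndufb11, the other X-linked gene of complex I, encodes a membrane-arm subunit. It was at 11.5, 7.94, 9.40 and 7.17 CPM in PTU mice 9 to 12 and at 9.40, 9.14, 11.9 and 8.42 CPM in PTU+TH mice 13 to 16, with overlapping groups and a log2 fold change of 0.11 (edgeR adjusted p = 0.900). The estimate was 0.26 without PTU mouse 9, -0.00371 without PTU+TH mouse 15 and 0.04 with the presence of Y-linked counts as a covariate. Ndufa11, a membrane-arm subunit that contacts complex III in supercomplexes, was at 29.0, 23.5, 20.7 and 21.7 against 28.1, 29.2, 27.7 and 24.8 CPM (log2 fold change 0.21, edgeR adjusted p = 0.540, and 0.33 without mouse 9). Here again all PTU+TH libraries lay above mice 10 to 12 and mouse 9 lay among them.

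Ndufv1 encodes the subunit that binds NADH. It was at 169.5, 152, 106 and 128 CPM in PTU mice 9 to 12 and at 156, 143, 127 and 127 CPM in PTU+TH mice 13 to 16. The PTU libraries spanned the whole PTU+TH range, and the log2 fold change was -0.01 (edgeR adjusted p = 0.992), 0.00 with upper quartile scaling, 0.11 without mouse 9, -0.12 without PTU mouse 11 and 0.10 with the Y-linked covariate.

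Complex II, succinate dehydrogenase, is the complex with no subunit from the mitochondrial genome. Its 4 genes had 3 higher estimates and 1 lower, with a median log2 fold change of 0.12. At an unadjusted p under 0.05 in edgeR 0 of them were higher or lower, against 6.59% and 6.17% of all genes. The summed level was 443 ± 40.8 against 456 ± 25.3 CPM (PTU and PTU+TH, mean ± SD over 4 libraries). Sdha, the flavoprotein that oxidises succinate, was at 258, 226, 216 and 234 CPM in PTU mice 9 to 12 and at 219.97, 245, 224 and 221 CPM in PTU+TH mice 13 to 16. The groups overlapped fully, and the log2 fold change was -0.04 (95% interval -0.25 to 0.17, edgeR adjusted p = 0.944), or 0.02 without mouse 9, -0.07 without PTU+TH mouse 14 and -0.00649 with the Y-linked covariate. Sdhc, a membrane anchor, was at 51.5, 48.3, 47.6 and 52.2 against 58.9, 65.8, 49.0 and 49.4 CPM, with mice 13 and 14 above all PTU libraries and a log2 fold change of 0.16 (edgeR adjusted p = 0.607). It was 0.07 without PTU+TH mouse 14 and 0.32 with the presence of Y-linked counts as a covariate.

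Complex III, the cytochrome bc1 complex, had higher estimates for 9 of 9 genes and a median log2 fold change of 0.22 (0.39 without mouse 9). At an unadjusted p under 0.05 in edgeR 2 of its genes were higher, against 6.59% of all genes. Its summed level was 551 ± 66.2 against 616 ± 37.1 CPM (PTU and PTU+TH, mean ± SD over 4 libraries). Uqcr11, the smallest accessory subunit, was at 41.8, 34.0, 24.2 and 23.7 CPM in PTU mice 9 to 12 and at 38.2, 43.5, 49.2 and 38.4 CPM in PTU+TH mice 13 to 16. PTU mice 10 to 12 lay under every PTU+TH library, and mouse 9 did not. The log2 fold change was 0.45 (SE 0.17, 95% interval 0.08 to 0.82, edgeR adjusted p = 0.271), and 0.63 without mouse 9.

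Uqcrb, an accessory subunit near the quinone site, was at 17.7, 16.4, 12.3 and 14.0 against 17.6, 17.7, 20.9 and 18.2 CPM (log2 fold change 0.30, edgeR adjusted p = 0.386). Uqcrh, the hinge protein between cytochrome c1 and cytochrome c, was at 31.3, 22.7, 21.6 and 21.6 against 27.6, 30.3, 33.9 and 25.8 CPM (log2 fold change 0.27, edgeR adjusted p = 0.465, and 0.43 without mouse 9). In both genes mouse 9 was the PTU library inside the PTU+TH range. Cyc1, the catalytic cytochrome c1, showed the least difference of this complex, with 180.1, 155, 152 and 165 CPM in PTU mice 9 to 12, 178, 181, 158 and 156 CPM in PTU+TH mice 13 to 16, and a log2 fold change of 0.04 (95% interval -0.16 to 0.25, edgeR adjusted p = 0.928), which was 0.10 without mouse 9, 0.00731 without PTU+TH mouse 14 and 0.14 with the Y-linked covariate.

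Cycs encodes somatic cytochrome c, the mobile electron carrier that also takes part in apoptosis. It was at 6.59, 5.04, 5.99 and 4.90 CPM in PTU mice 9 to 12 and at 7.80, 7.43, 8.31 and 6.996 CPM in PTU+TH mice 13 to 16. The groups did not overlap, with mouse 9 the highest PTU library and still below all PTU+TH libraries. The means were 5.63 ± 0.803 and 7.63 ± 0.560 CPM (SD, n = 4 each), a log2 fold change of 0.44 (SE 0.17, 95% interval 0.08 to 0.80) with an edgeR adjusted p of 0.261.

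Complex IV, cytochrome c oxidase, had the highest median of the complexes with several genes when all libraries were used, and complex III had it without mouse 9 (0.39, against 0.34 for complex IV). Of its 17 genes 13 were tested, and 13 of 13 estimates were higher. At an unadjusted p under 0.05 in edgeR 6 were higher, against 6.59% of all genes. The median log2 fold change of complex IV was 0.28 (0.34 without mouse 9). Its summed level was 559, 428, 458 and 428 CPM in PTU mice 9 to 12 and 579, 564, 617 and 503 CPM in PTU+TH mice 13 to 16, or 468 ± 62.1 against 566 ± 47.3 CPM (SD, n = 4 each). The groups overlapped in this sum through mouse 9 and mouse 16. Whether the median of complex IV differs from those of the other complexes was not tested.

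Cox7b, an accessory subunit needed for assembly of the complex, is X-linked (106015700 to 106022450). It was at 81.1, 75.2, 82.7 and 81.7 CPM in PTU mice 9 to 12 and at 108, 100.2, 103 and 90.3 CPM in PTU+TH mice 13 to 16. The groups did not overlap, and mouse 9 lay with the other PTU libraries. The means were 80.2 ± 3.41 and 100.4 ± 7.5 CPM (SD, n = 4 each), with a log2 fold change of 0.32 (SE 0.08, 95% interval 0.14 to 0.51) and an edgeR adjusted p of 0.0713, the lowest of the 80 genes. In the 6 libraries with Y-linked counts the log2 fold change was 0.38 (edgeR adjusted p = 0.182), and with DESeq2 the adjusted p over all 8 libraries was 0.0140.

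Cox5a and Cox5b encode peripheral subunits on the matrix side of the enzyme. Cox5a was at 43.6, 31.4, 41.1 and 36.3 CPM in PTU mice 9 to 12 and at 50.5, 51.7, 48.6 and 45.7 CPM in PTU+TH mice 13 to 16, without overlap (log2 fold change 0.37, SE 0.11, 95% interval 0.13 to 0.60, edgeR adjusted p = 0.125). Cox5b was at 34.7, 35.3, 28.8 and 36.9 against 45.2, 41.4, 45.3 and 35.1 CPM, and mouse 16 alone lay within the PTU range (log2 fold change 0.30, edgeR adjusted p = 0.256). Cox7c, another accessory subunit, is named because its groups did not overlap, a choice made after its values were seen. It was at 24.15, 24.20, 18.8 and 21.3 against 26.6, 27.2, 26.8 and 24.3 CPM, with only a small gap between mouse 10 and mouse 16 (log2 fold change 0.24, edgeR adjusted p = 0.387).

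**Figure D4:**
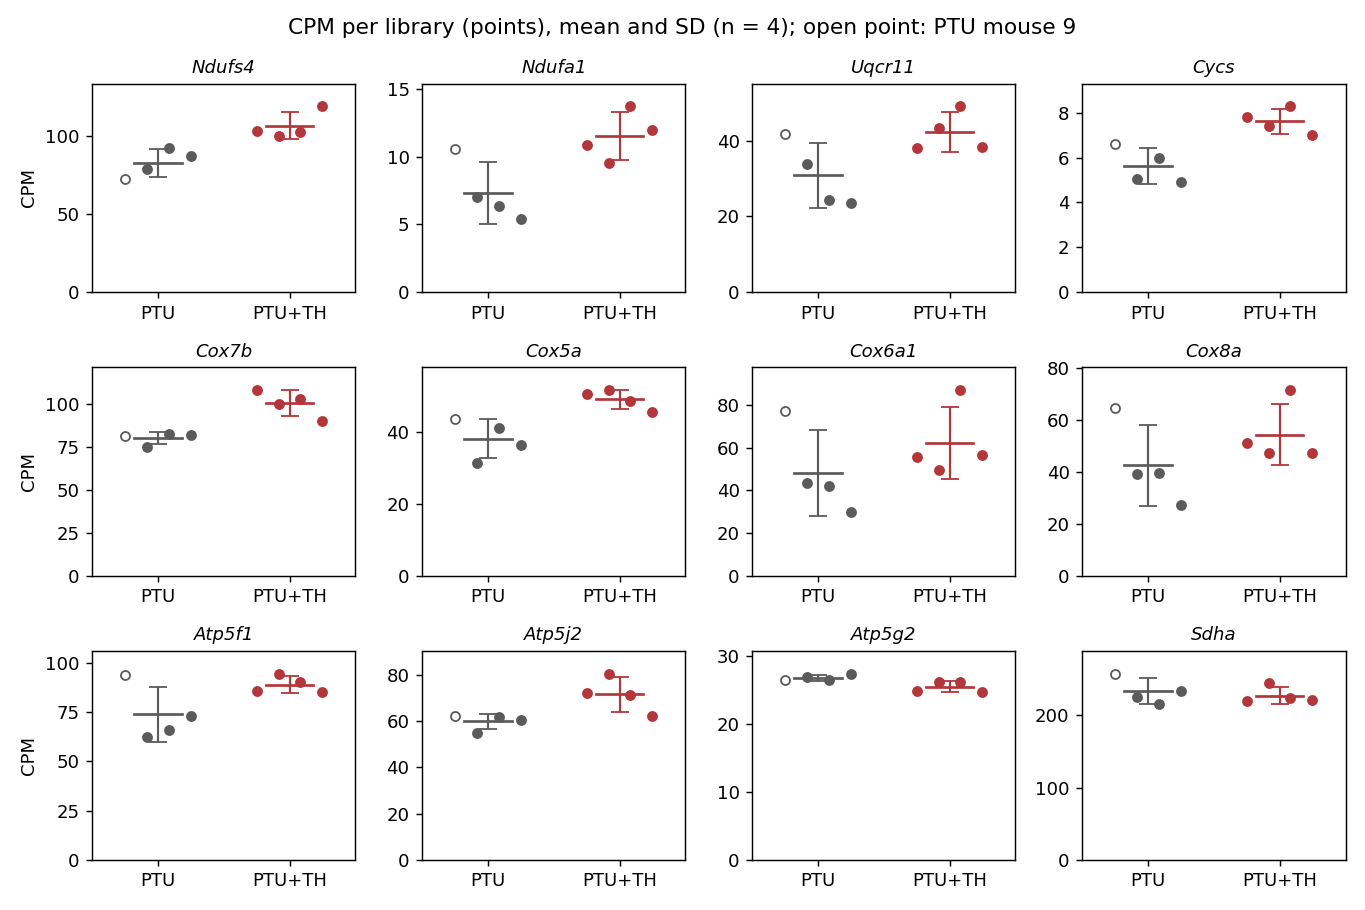
Level in CPM (y axis, from 0) of 12 subunit genes in each library, with the mean and SD of each group (n = 4) and PTU mouse 9 as the open point. Ndufs4, Cox7b, Cox5a and Cycs show separate groups, in Ndufa1, Uqcr11, Cox6a1, Cox8a and Atp5f1 mouse 9 lies within the PTU+TH range, and Atp5g2 and Sdha show little difference.

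Several subunits of complex IV come as a broadly expressed form and a form restricted to certain tissues. Where both forms of a pair could be counted here, the broad form had the higher level. Cox6a1, the broad form of a regulatory subunit, was at 77.0, 43.2, 42.2 and 29.7 CPM in PTU mice 9 to 12 and at 55.4, 49.7, 87.0 and 56.3 CPM in PTU+TH mice 13 to 16. Cox8a, the broad form of a small membrane subunit, was at 64.6, 39.1, 39.7 and 27.2 against 51.1, 47.5, 71.7 and 47.5 CPM. Both genes had the same order at the ends, with mouse 15 highest, mouse 9 next and mouse 12 lowest.

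The log2 fold changes were 0.37 for Cox6a1 (SE 0.28, edgeR adjusted p = 0.680) and 0.35 for Cox8a (SE 0.24, edgeR adjusted p = 0.637), and without mouse 9 they were 0.70 (adjusted p = 0.111) and 0.63 (adjusted p = 0.0825). They were lower without PTU+TH mouse 15 (0.16 and 0.19), without PTU mouse 12 (0.20 and 0.19) and with the presence of Y-linked counts as a covariate (0.13 and 0.21). Markers of other cells also differ between these libraries. The median deviation of the excitatory neuron markers in log2 CPM was 0.59, 0.41, -0.15 and -0.84 in PTU mice 9 to 12 and 0.14, -0.40, 0.74 and -0.15 in PTU+TH mice 13 to 16. That of the astrocyte markers, with Gfap listed at 0, was 0.38, 0.74, -0.20 and -0.67, and then 0.40, -0.60, 0.82 and -0.13. Mouse 15 was high and mouse 12 low in these markers as in both genes, whereas mouse 10 was high in the markers and not in the genes. For the microglial markers, with P2ry12 listed at 0, it was 0.21, -0.36, 0.01 and -0.41, and then 0.20, -0.03, 1.04 and -0.00439. For the oligodendrocyte precursor markers it was 0.61, 0.25, -0.27 and -0.92, and then 0.17, -0.68, 1.01 and -0.31, and for the oligodendrocyte markers 0.11, 0.14, -0.66 and -0.74, and then 0.36, -0.20, 1.10 and 0.02. In the excitatory, microglial and precursor lists mouse 15 was highest, mouse 9 next and mouse 12 lowest, the order of these mice in both genes, and in the astrocyte and oligodendrocyte lists mouse 15 was highest and mouse 12 lowest. For the endothelial markers it was -0.05, 1.36, -0.44 and -1.06, and then 0.65, -0.81, 0.90 and -0.35. There mouse 10 was highest, mouse 15 next and mouse 12 lowest, with mouse 9 below mouse 13. All 7 excitatory, 5 of 6 astrocyte, 6 of 7 microglial, 4 precursor, 7 oligodendrocyte and 6 endothelial markers were tested, and 0 were called. The part of these markers in the levels of Cox6a1 and Cox8a was not tested.

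Cox6b1 and Cox6b2 encode the broad and the testis form of a subunit at the dimer interface. Cox6b1 was at 52.5, 40.7, 41.3 and 38.1 against 49.3, 53.8, 59.4 and 47.4 CPM, with mouse 9 inside the PTU+TH range (log2 fold change 0.28, edgeR adjusted p = 0.305). Cox6b2 had only 26, 39, 33 and 19 counts in PTU mice 9 to 12 and 66, 55, 68 and 28 counts in PTU+TH mice 13 to 16. Its log2 fold change of 0.90 (SE 0.34, 95% interval 0.16 to 1.64, edgeR adjusted p = 0.261) is the highest estimate of the 80 genes and has the widest interval. Per kb of gene body the mean level was 5.15 CPM for Cox6b1 and 1.34 CPM for Cox6b2.

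Cox7a2, the broad form of its subunit, was at 33.2, 21.9, 21.9 and 17.8 against 23.9, 23.1, 34.5 and 27.0 CPM (log2 fold change 0.19, edgeR adjusted p = 0.774). Its estimate was 0.40 without mouse 9, 0.06 without PTU+TH mouse 15 and -0.01 with the presence of Y-linked counts as a covariate. Cox7a2l, a factor of respiratory supercomplexes, had a log2 fold change of 0.07 (edgeR adjusted p = 0.922), or 0.20 without mouse 9, -0.02 without PTU+TH mouse 14 and 0.14 with that covariate. Cox7b2, a testis form, had 0.0362 CPM per kb against 13.4 for Cox7b, and a log2 fold change of 0.18 (edgeR adjusted p = 0.840), which ran from 0.08 to 0.31 with 1 library left out (without PTU+TH mouse 16 and PTU mouse 11) and was 0.04 with the Y-linked covariate. Cox6c, an accessory subunit, was at 119, 92.8, 115 and 116 against 142, 140, 111 and 103 CPM (log2 fold change 0.16, edgeR adjusted p = 0.664; 0.09 without PTU mouse 10 and 0.35 with the Y-linked covariate), with mice 13 and 14 above all PTU libraries and mice 15 and 16 within the PTU range. Cox6c2 is a pseudogene of 0.231 kb that shares sequence with Cox6c, so reads of the pair may be split between them and its values are uncertain.

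The 5 genes left out of the test are all restricted forms or lie inside other genes. The muscle forms Cox7a1 and Cox8b had 10, 3, 4 and 3 against 4, 3, 7 and 2 counts and 2, 0, 0 and 1 against 0, 0, 0 and 0 counts, and the testis form Cox8c had 1 count in all, in mouse 12. Cox6a2 and Ndufa13 were at 0 in every library. Each lies wholly within another gene, Itgad and Yjefn3, and all 1265 protein-coding genes of that kind were listed at 0, so these zeros say nothing about expression. Cox4i1, the broad form of subunit 4, lies inside Gm20388 and was at 0 as well, and Cox4i2, its restricted form, was at 0.437 ± 0.0951 against 0.706 ± 0.207 CPM (SD over 4 libraries), with a log2 fold change of 0.68 (adjusted p = 0.562 in edgeR). The symbols of subunit 4 do not match the rule and are given only as a supplement.

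Yjefn3, the gene that holds Ndufa13, rose. Its counts were 353, 318, 304 and 416 in PTU mice 9 to 12 and 846, 1076, 724 and 716 in PTU+TH mice 13 to 16, and the groups did not overlap. The means were 14.5 ± 2.77 and 34.9 ± 1.80 CPM (SD, n = 4 each), a log2 fold change of 1.27 (SE 0.13, edgeR adjusted p = 0.000228). Of its body (chromosome 8, 69887788 to 69902712, GRCm38), 42.8% is free of other genes, and whether reads of Ndufa13 enter its count was not tested. Overlap also touches Ndufb8 (38.0% of the body free), Ndufb9 (37.1%) and Atp5o (40.2%), and the median log2 fold change over the 77 other tested genes was 0.16.

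Complex V, the ATP synthase, had 17 genes, all tested. Estimates were higher for 15 and lower for 2 (Atp5g2 and Atp5s, the latter a coupling factor and not a core subunit, at -0.02 with all libraries and 0.04 without mouse 9). At an unadjusted p under 0.05 in edgeR 2 were higher, against 6.59% of all genes. The median log2 fold change of complex V was 0.14 (0.22 without mouse 9). The summed level was 1300 ± 205 against 1431 ± 82.1 CPM (PTU and PTU+TH, mean ± SD over 4 libraries). Atp5b, the catalytic beta subunit, was at 436, 307, 269.8 and 267 CPM in PTU mice 9 to 12 and at 313, 388, 357 and 324 CPM in PTU+TH mice 13 to 16. Mouse 9 was above every other library, while mice 10 to 12 lay under all of PTU+TH, and the log2 fold change was 0.11 (95% interval -0.23 to 0.45, edgeR adjusted p = 0.871). With 1 library left out it ran from 0.03 (without PTU mouse 12) to 0.30 (without PTU mouse 9).

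Atp5f1, a subunit of the peripheral stalk, was at 93.8, 62.7, 66.2 and 73.2 against 86.0, 94.7, 90.3 and 85.3 CPM (log2 fold change 0.27, SE 0.12, 95% interval 0.02 to 0.52, edgeR adjusted p = 0.348; 0.41 without mouse 9). Mouse 9 again lay inside the PTU+TH range and the other 3 below it. Atp5j2, a small membrane subunit, was at 62.4, 55.1, 61.6 and 60.7 against 72.3, 80.6, 71.5 and 62.2 CPM (log2 fold change 0.26, edgeR adjusted p = 0.232), and mouse 16 fell at the top of the PTU range. Atp5h, another part of the stalk, was at 78.4, 82.9, 62.0 and 69.1 against 91.8, 93.2, 81.4 and 72.9 CPM (log2 fold change 0.21, edgeR adjusted p = 0.471; 0.34 with the Y-linked covariate).

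Atp5g1, Atp5g2 and Atp5g3 encode the same mature c subunit of the rotor ring with different import sequences. Per kb of gene body their mean levels were 6.50, 2.78 and 40.6 CPM. Atp5g2 was at 26.5, 26.9, 26.4 and 27.4 CPM in PTU mice 9 to 12 and at 24.9, 26.16, 26.17 and 24.7 CPM in PTU+TH mice 13 to 16. The groups did not overlap, yet the gap was small, with a log2 fold change of -0.07 (SE 0.09, 95% interval -0.27 to 0.13, edgeR adjusted p = 0.847). Atp5g3 was at 142, 87.6, 109.7 and 104 against 116, 135, 125 and 115 CPM (log2 fold change 0.15, edgeR adjusted p = 0.722; 0.06 without PTU mouse 10 and 0.30 without PTU mouse 9), and Atp5g1 had a log2 fold change of 0.17 (edgeR adjusted p = 0.611), which ran from 0.11 to 0.26 with 1 library left out (without PTU mouse 11 and PTU+TH mouse 16) and was 0.30 with the Y-linked covariate.

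Levels per length differed between subunit genes far more than the level of a gene differed between libraries of a group. The mean over the 8 libraries, per kb of gene body free of other genes, had a median of 4.97 CPM and ran from 0.0362 for Cox7b2 to 60.5 for Cyc1. Atp5b (47.7), Atp5g3 (40.6), Ndufv1 (25.6) and Atp5d (25.4) were at the upper end, while Ndufs4 (0.941), Ndufa12 (0.772) and Cycs (1.67) were low. In complex II the order was Sdha (8.32), Sdhb (6.87), Sdhd (5.72) and Sdhc (2.25). These levels depend on how introns were counted, which is not given in the sources used here, so a gene with long introns can look low. By contrast, the highest PTU library exceeded the lowest by a median of 1.39-fold over the 80 genes (1.03 to 2.59, the latter in Cox6a1), and within PTU+TH by 1.25-fold (1.05 to 2.32, the latter in Cox6b2).

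**Figure D5:**
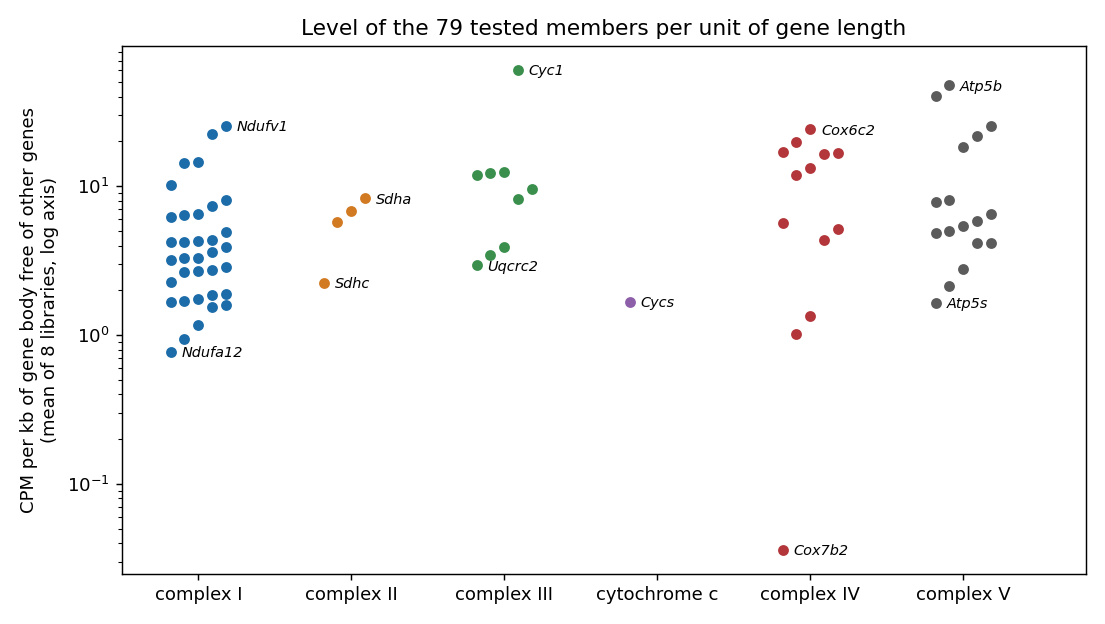
Mean CPM over 8 libraries per kb of gene body free of other genes (y axis, log scale), 1 point for each of 79 tested subunit genes, by complex. Points run from 0.0362 (Cox7b2) to 60.5 (Cyc1), and the highest or lowest gene of each complex is named.

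Genes that serve the same system were described beside the subunits. Of 46 assembly factors 40 were tested, with 31 higher and 9 lower estimates, 0 called by edgeR, DESeq2 or limma voom (3 higher and 1 lower at an unadjusted p under 0.05 in edgeR) and a median log2 fold change of 0.08. Without mouse 9 the median was 0.10 and 1 of them, Coa3, was called higher by edgeR, where 1.93% of all genes were. Its log2 fold change was 0.74 (edgeR adjusted p = 0.0138), and it was singled out after its values were seen. With all libraries the lowest p-values of the assembly factors belonged to Timmdc1, a complex I assembly factor (21.6 ± 1.22 against 26.5 ± 1.56 CPM, with a log2 fold change of 0.30 and an adjusted p of 0.198 in edgeR), and to Ndufaf4, another one (27.6 ± 3.16 against 34.1 ± 3.86 CPM, with a log2 fold change of 0.31 and an adjusted p of 0.257 in edgeR). The 71 tested genes of the mitochondrial ribosome had 48 higher and 23 lower estimates and a median of 0.03 (0.11 without mouse 9), and the 21 tested genes of mitochondrial import had 15 and 6 and a median of 0.10 (0.15 without mouse 9). Cytosolic ribosomal protein genes (47 higher, 24 lower) had a median of 0.08 (0.11 without mouse 9) and proteasome genes (9 higher, 26 lower) of -0.08 (-0.01 without mouse 9). Over these 4 lists edgeR and limma voom called 0 genes and DESeq2 called 1, a cytosolic ribosomal gene. At an unadjusted p under 0.05 in edgeR there were 2 (mitochondrial ribosome), 1 (import) and 2 (cytosolic ribosome) higher genes and 1 lower one (proteasome). Over all genes tested, 6.59% were higher and 6.17% lower at that level.

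Transcripts of the mitochondrial genome took few counts in these nuclei. Of 13 protein genes 6 were listed at 0 and 7 were tested, and their sum was 11.5 to 19.7 CPM in PTU and 9.28 to 16.8 CPM in PTU+TH. Estimates were higher for 2 and lower for 5, with a median of -0.32 (-0.05 without mouse 9), and 0 were called by edgeR, DESeq2 or limma voom or had an unadjusted p under 0.05 in edgeR. The library of mouse 9 had the highest sum, with a median deviation of 0.61 in log2 CPM, and mouse 15 followed with 0.55. Their part in the levels of the nuclear genes was not tested.

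Among 12 regulators of mitochondrial genes 2 rose and 0 fell in edgeR, where 1.49% of all genes were called higher and 0.634% lower. DESeq2 and limma voom also called 2 each, where they called 2.63% and 1.67% of all genes higher. At an unadjusted p under 0.05 in edgeR 4 were higher and 0 lower, against 6.59% and 6.17% of all genes. Ppargc1a, a coactivator that drives mitochondrial biogenesis, was at 105, 109, 148 and 123 CPM in PTU mice 9 to 12 and at 159, 165.8, 168 and 197 CPM in PTU+TH mice 13 to 16. Esrra, an orphan nuclear receptor that works with it, was at 48.0, 56.5, 62.5 and 58.6 against 75.6, 74.7, 69.7 and 77.7 CPM. Neither gene's groups overlapped, and mouse 9 was the lowest library of both. The log2 fold change was 0.51 for Ppargc1a (SE 0.12, edgeR adjusted p = 0.0407) and 0.40 for Esrra (SE 0.09, edgeR adjusted p = 0.0453). Both adjusted p-values lie near the threshold. Leaving out 1 library in turn gave 0.0114 to 0.141 for Ppargc1a and 0.0388 to 0.139 for Esrra, with both calls lost without PTU mouse 10 or 12 or any single PTU+TH mouse, and the 6 libraries with Y-linked counts gave 0.384 and 0.258, at log2 fold changes of 0.43 and 0.42. The call of Esrra was also lost with length offsets (adjusted p = 0.0658) and with library totals only (0.0507), at log2 fold changes of 0.40 and 0.39.

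Some promoters of the subunit genes carried motifs of known regulators of this system. RefSeq promoter windows (build GRCm38.p6, 250 bases before to 50 after the start) were found for 70 of the 85 genes, and motifs were looked for on both strands. The NRF1 motif was in 17 of them (24.3%), against 5.19% of 27025 genes. The latter are all genes with a promoter window and not only those tested here. The YY1 motif AAGATGGCG was in 7 (10.0%, against 1.64%), and the GABP motif ACTTCCGG in 5 (7.14%, against 4.31%, a share near that of all genes). The ERR motif TCAAGGTCA, bound by Esrra and its relatives, was in only 2 (2.86%, against 0.466%), which were Atp5g3 and Sdhd. The direct repeat with 4 bases between its copies that makes a TH response element was in 0, against 0.0148% of genes. These exact letters were found in only 4 of the 27025 genes. A 0 among 70 promoters therefore cannot tell whether the subunit genes have such elements. A match describes these letters and is not a measured site.

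The following stretches, all on the minus strand and written 5′ to 3′ with the motif in capitals, show what these matches look like in genes with unlike values. Cox6a1 (chr5:115349059-115349128, 170 to 101 bases before the start) and Sdha (chr13:74350281-74350350, 110 to 41 bases before it) each hold NRF1 motifs and had log2 fold changes of 0.37 and -0.04. Atp5g3 (chr2:73911347-73911406, 80 to 21 bases before it) holds the ERR motif on the opposite strand, and Uqcr11 (chr10:80406862-80406911, 90 to 41 bases before it) holds the GABP motif on the opposite strand.
Cox6a1: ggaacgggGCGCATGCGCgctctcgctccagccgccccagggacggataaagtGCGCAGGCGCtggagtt
Sdha: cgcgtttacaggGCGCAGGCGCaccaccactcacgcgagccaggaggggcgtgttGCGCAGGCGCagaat
Atp5g3: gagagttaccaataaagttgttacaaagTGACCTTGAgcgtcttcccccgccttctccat
Uqcr11: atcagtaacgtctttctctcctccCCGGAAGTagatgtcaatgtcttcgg

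Medians of tested genes were set side by side with and without each motif. The median log2 fold change was 0.15 for the 17 genes with the NRF1 motif and 0.17 for the 50 without it (0.25 and 0.27 without mouse 9). For the YY1 motif it was 0.13 (7 genes) and 0.17 (60 genes), or 0.26 and 0.26 without mouse 9. For the GABP motif it was 0.27 (5 genes) and 0.15 (62 genes), or 0.43 and 0.26 without mouse 9. These medians are descriptions, and no difference between them was tested.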

How the data were processed

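The authors deposited raw counts of reads per gene, with 1 file per mouse. Nuclei were sorted and nuclear RNA was made into cDNA with SMART-Seq v4 and Nextera XT and sequenced as single-end reads, per the labels' protocols. Bowtie2 2.5.3 and the builds mm10 and GRCm38 are named per the submitters' processing notes; the counting program, annotation, use of strand and treatment of introns are not given in the sources used here. All 55341 symbols matched GENCODE M21 (GRCm38), which gave positions and lengths.

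Groups came from the sample titles. Pairs of libraries of a group differed in counts by a chi-square of 8.38 to 72.6 per degree of freedom over 12 pairs, so none was a copy. The counts were fitted with edgeR 4.0.16 in R 4.3.3 (filterByExpr, TMM, robust quasi-likelihood test, group as the only term; two-sided; Benjamini-Hochberg over 17355 genes; called at an adjusted p under 0.05). CPM were computed after TMM, as mean ± SD over 4 libraries. Intervals are 95%. The library totals were compared by exact permutation over 70 arrangements, whose smallest p is 0.0286.

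The subunit genes, the other lists and the alternatives were chosen with earlier results of these data known. Genes were named by rule: those called; the 3 lowest p-values of complexes I, III, IV and V and the lowest of complex II at a mean of at least 1 CPM; the highest CPM of each complex; Cycs; X-linked genes; paralog sets; and up to 2 genes per other list. Alternatives covered scaling, DESeq2 1.42.0, limma 3.58.1 voom, filters, length offsets, Y-linked counts, a surrogate variable (sva 3.50.0) and each library left out. Scripts were tested on simulated data. The values of 1 tested gene, included in the counts, medians and sums, are not reported here, and it is not drawn in the plots of single genes.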

Additional observations from a re-analysis of the deposited data

Results flagged for a closer look

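In 60 sets of 4 values (30 named genes in 2 groups), 4 held a library far from the other 3 by Dixon's criterion, where chance gives about 1 in 20, or 3. In PTU mouse 10, Cox6c stood at 92.8 CPM, below the 114.6 to 119 of the other PTU libraries. In PTU+TH mouse 15, Cox8a stood at 71.7 CPM, above 47.5 to 51.1 in the rest of that group. In PTU+TH mouse 16, Ndufs4 stood at 119 CPM, above 100.2 to 103, a high value on the side of the group difference. In PTU mouse 9, Uqcrh stood at 31.3 CPM, above 21.6 to 22.7, the library that stands apart for most subunit genes.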

How the results depend on the processing

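The number of all genes called was 368 (258 higher, 110 lower). It was 748 with DESeq2 (456 and 292), 991 (658 and 333) when a surrogate variable was fitted, 711 (446 and 265) under length offsets, 129 (106 and 23) when presence of Y-linked counts was a term and 58 (52 and 6) over the 6 libraries that have such counts. Without 1 library it ran from 182 (without PTU+TH mouse 15) to 499 (without PTU mouse 9). Subunit genes called numbered 2 with DESeq2, 1 (Ndufs4) under length offsets, 4 when a surrogate variable was fitted (Ndufs4, Uqcr11, Cox7b and Ndufa1, where 3.79% of all genes were called higher) and 2 at an adjusted p under 0.1 (where 2.21% were). Without 1 library they numbered 0 to 4, the latter without PTU mouse 9. Their median log2 fold change was 0.11 to 0.25 without 1 library and 0.14 to 0.19 in the other alternatives, above 0 in each one run. Of the genes named by rule, single estimates changed sign for Cox7a2 (-0.0146 with the Y-linked covariate and -0.0130 in the 6 libraries) and for Ndufv1 (0.00447 with upper quartile scaling, 0.0532 with voom, 0.10 with the covariate and 0.10 in the 6 libraries). Without 1 library, Ndufv1 ran from -0.12 to 0.11, Sdha from -0.0725 to 0.0199, Cox7a2l from -0.0163 to 0.20 and Ndufb11 from -0.00371 to 0.26. Other subunit genes changed sign too, such as Ndufc1 in 6 of 19 alternatives and Atp5mpl in 3. Atp5s, Ndufa12, Ndufab1 and Ndufb4 did so in 2 each, and Atp5a1, Atp5k, Ndufa2, Ndufa3 and Ndufb3 in 1 each. The cause of these shifts was not tested. No paired analysis was possible because no mouse number occurs in both groups. With 4 libraries a group, many intervals reach past 0, so a gene not called here may still differ. Cox6b2 and Cycs rest on low counts.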
